A study of Mus musculus with 12 samples.

Results

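The genes described are 32 genes that the tumour suppressor p53 is known to switch on, together with the p53 gene Trp53 and its inhibitors Mdm2 and Mdm4, which are counted in that number. Members were found as array probe sets whose only annotated gene symbol was on the list, with 1 probe set per gene, the one with the highest mean over 12 arrays. Of the 32 genes, 30 had such a probe set (61 probe sets in all), and Trp53 and Gdf15 were not analysed here. A gene was tested where its log2 intensity exceeded the filter level of 4 (16 units) on 3 or more arrays, and 26 members were among the 10817 genes that passed. The 4 members that did not pass were Plk2 (6.35 to 16.2 units over the arrays), Plk3 (4.52 to 5.38), Tnfrsf10b (4.87 to 11.6) and Epha2 (4.49 to 22.3).

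RNA came from leukaemic stem cells of 2 mouse models, each started by putting oncogenes into donor haematopoietic stem and progenitor cells and transplanting them. The fusion MLL-AF9 gave acute myelogenous leukaemia (AML), from which Lin-Sca1-ckit+ cells were sorted. The pair BCR-ABL/NUP98-HOXA9 gave blast crisis chronic myelogenous leukaemia (bcCML), from which Lin- cells were sorted with no further marker. Each model had 3 arrays of wild-type cells and 3 of Msi2 mutant cells (Msi2 Gt/Gt), in which both copies of the gene of the RNA-binding protein Musashi2 carry a gene trap. All 4 groups carry the strain label B6;CB-Msi2Gt(pU-21T)2Imeg. The donor cells and not the hosts carried the genotype, and the ages of the mice are not given in the sources used here. The comparisons ask how loss of Msi2 changes gene expression in the 2 leukaemias.

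p53 is a transcription factor that is kept scarce by Mdm2, a ubiquitin ligase that marks it for destruction, and is held inactive by the related protein Mdm4. DNA damage, oncogene signalling and other stresses free p53 from both, and it then switches on genes that stop the cell cycle, start cell death, repair DNA or adjust metabolism. Mdm2 is itself a target, which closes a feedback loop. In blood-forming cells p53 is known for removing damaged or oncogene-driven stem and progenitor cells, and RNA levels of its targets are a common readout of its activity, although each target also answers to other factors.

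p53 binds DNA as a tetramer at a pair of copies of a 10-base motif called the p53 half-site. The promoter sequences of 24 of the 32 members, 36 promoters of 300 bases each (250 before the start of transcription and 50 after it), were taken from RefSeq on mouse build GRCm38.p6. A half-site was present in 11 of the 36 member promoters, against 8.36% of all 32851 promoters in the same table. The half-site pattern is its own reverse complement, so a search of 1 strand covers both. Adjoining pairs with no spacer and at most 1 mismatch in the 20 bases were present in promoters of 4 members, and in 29 (0.0883%) of all promoters. These 4 are printed because they show what the sequence that p53 recognises looks like beside the genes described below. Capitals mark the 20 bases of the pair, and each is read 5′ to 3′ on the strand of its gene. Distances are to the start of the promoter printed, and Cdkn1a, Rps27l and Gtse1 each had another promoter without such a pair.
Cdkn1a, chr17:29090908-29090967, plus strand, pair beginning 51 bases before the start: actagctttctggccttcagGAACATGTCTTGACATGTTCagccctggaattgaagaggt
Ccng1, chr11:40755442-40755501, minus strand, pair beginning 195 bases before the start: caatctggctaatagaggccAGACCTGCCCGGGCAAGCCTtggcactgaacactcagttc
Rps27l, chr9:66946276-66946335, plus strand, pair beginning 117 bases before the start: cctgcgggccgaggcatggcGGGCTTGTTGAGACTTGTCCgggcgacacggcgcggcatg
Gtse1, chr15:85859945-85859964, plus strand, pair beginning 1 base before the start: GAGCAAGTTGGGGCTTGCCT
A match is a description of the letters and not of binding, and sites of p53 often lie in introns or farther upstream, outside these windows.

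The arrays were alike in brightness, with medians between 13.1 and 13.8 units, and replicates of a group correlated at 0.938 to 0.981. The Msi2 probe set measured 325, 181 and 430 units on the wild-type AML arrays and 52.9, 69.1 and 86.9 on the mutant ones, and 2583, 4319 and 4579 against 487, 721 and 608 in bcCML, so it was lower on all mutant arrays, as the labels say. The progenitor gene Kit was above 16 units on all 12 arrays (78.2 to 546). Of 12 T and NK cell markers 2 were tested, Prf1 (214 to 347 units over the arrays) and Cd2 (5.54 to 104). Gzma reached 96.9 units on wild-type and 969 on mutant bcCML array 2 and lay below 16 units elsewhere. The T-cell receptor genes Cd3e and Cd3g lay below 16 units on every array (4.49 to 9.53). The sex-linked RNAs parted the 2 models. The X-inactivation RNA Xist lay at 4022 to 7534 units on AML arrays and at 15.6 to 89.0 on bcCML arrays. Eif2s3y, a Y-linked gene, lay at 5.34 to 5.77 units on AML arrays and at 218 to 3228 on bcCML arrays. Leukaemia, sex of the cells and sort gate cannot be told apart in any comparison between the models. AML mutant array 1 stood apart, with the summed level of 8 monocyte and macrophage markers at 3391 units against 12943 to 24617 on the other AML arrays, and that of 19 mitotic genes at 64760 against 31736 to 49482.

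In Msi2 mutant bcCML, most of the p53 targets on this list measured higher than in wild-type bcCML, although no single member passed the test. Of 26 tested members, 23 had a positive difference, and the median log2 difference was 0.32 against -0.02 for all genes tested, of which 45.9% were positive. Phlda3, Eda2r, Ak1 and Psrc1 had the 4 largest positive differences, that of Ak1 with mutant array 3, without which it was 0.60 in place of 1.21. A second list of p53 targets, described below, showed no such shift in bcCML. Of its 23 tested genes 10 were positive and 13 negative, with a median of -0.08. Both lists were chosen with earlier results of these data known. In AML the members went in both directions, with 14 of 26 positive and a median of 0.02 against -0.05 for all genes, of which 42.9% were positive.

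With limma's test and Benjamini-Hochberg adjustment over all 10817 genes, 0 of 26 members passed an adjusted p of 0.05 in AML, where 1.52% of all genes passed, and 0 of 26 passed in bcCML, where 0.139% did. For the mean of the AML and bcCML differences 0 members passed against 0.471% of genes, and for the difference between the 2 Msi2 effects (the interaction) 0 members passed against 0% of genes. At an unadjusted p under 0.05 there were 4 members in AML (14.2% of all genes), 7 in bcCML (8.32%), 6 for the mean of both (13.7%) and 5 for the interaction (9.37%). The 4 in AML were Ddb2 and Phlda3 with positive and Ak1 and Sesn1 with negative differences. The 7 in bcCML were Eda2r, Phlda3, Ccng1, Ak1, Psrc1 and Ptp4a3 with positive differences and Rrm2b with a negative one.

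The labels state no pairing, but same-numbered bcCML arrays deviated together. The 6 bcCML arrays were therefore also fitted with the replicate number as a block. In that fit 11 members had an unadjusted p under 0.05, against 13.1% of all genes, and none passed after adjustment (limma adjusted p from 0.226 upwards). The additional 4 were Mdm4, Zmat3 and Dcxr with positive and Perp with negative differences. Within the 3 same-numbered pairs, 14 members were higher in the mutant each time, against 15.9% of all genes, and 2 were lower each time, Perp and Rrm2b, against 22.4%. The 14 included Mdm4, Cdkn1a, Dcxr and Gtse1, whose mutant and wild-type ranges overlapped.

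All 3 mutant arrays lay above all 3 wild-type arrays for 10 of 26 members in bcCML, against 5.83% of all genes, and below them for 2 members, against 10.1% of all genes. The 10 were Ccng1, Zmat3, Psrc1, Eda2r, Phlda3, Ei24, Ddb2, Ak1, Ptp4a3 and Rps27l, and the 2 were Perp and Rrm2b. In AML the mutant arrays lay wholly above for 1 member, Ddb2 (5.18% of all genes), and wholly below for 4 members, Eda2r, Polk, Sesn1 and Ak1 (11.6% of all genes). Eda2r was below the filter level on all AML arrays, so its order there is one of dim values, and Ak1 was below it on all mutant AML arrays. The members share the same 6 arrays in each comparison and are not independent of one another.

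The median shift was present on each mutant bcCML array. Set against the wild-type bcCML mean of each gene, the member median was 0.28, 0.27 and 0.45 (log2) on the 3 mutant arrays, with 21, 18 and 22 of 26 members above that mean. The wild-type bcCML arrays themselves lay at -0.09, 0.04 and 0.06, below every mutant array. The AML mutant arrays lay at -0.04, -0.15 and -0.09 and the AML wild-type arrays at 0.01, -0.05 and 0.08, which overlap. Over all genes tested, the medians of the 12 arrays lay between -0.09 and 0.04.

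**Figure D1:**
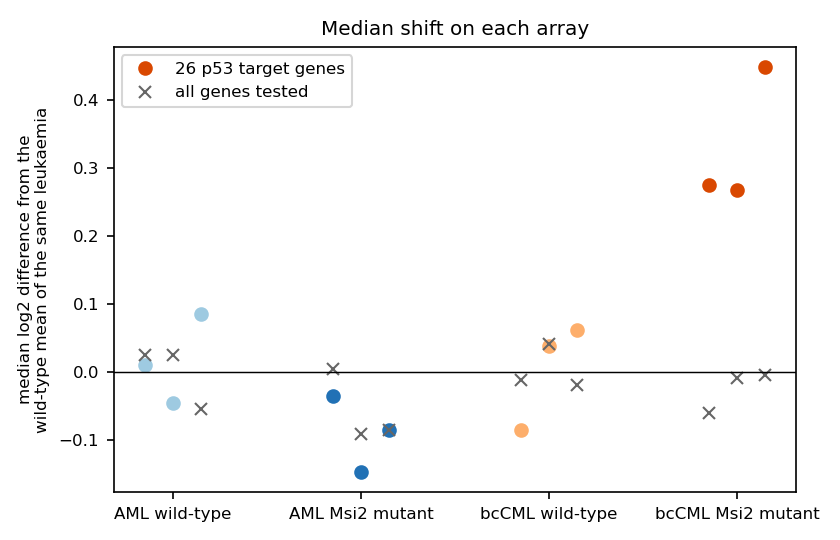
Median log2 difference of each array from the wild-type mean of the same leukaemia, over the 26 tested p53 target genes (filled points) and over all genes tested (crosses), by group. The 3 bcCML Msi2 mutant arrays sit at 0.27 to 0.45 for the p53 targets, above the 3 bcCML wild-type arrays, while the AML mutant arrays overlap with the AML wild-type arrays.

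Left out 1 at a time, no array took the count of positive members in bcCML outside 22 to 23 or its median outside 0.28 to 0.43. The count was 21 of 26 with the mean of all passing probe sets of each gene, and also with the dimmest passing one. Of 13 members with several passing probe sets, 10 had the same sign in all of them in bcCML. In AML the median turned negative without wild-type array 2 (-0.05) or 3 (-0.05) and without mutant array 1 (-0.13) or 2 (-0.06), and the count of positive members ranged from 11 to 14. Since 4 members (Eda2r, Phlda3, Perp and Ak1) were below 16 units on some arrays, the 22 above it on all 12 arrays were also described alone. In bcCML 20 of these 22 were positive, with a median of 0.30 and 7 members wholly higher in mutants (31.8%, against 5.84% of the 8919 genes above 16 units on all arrays). In AML 13 of the 22 were positive, with a median of 0.05.

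Levels of other cell markers also differed between the bcCML genotypes, in part with overlap. The 5 tested primary granule genes, made by granulocyte progenitors, all had negative differences (median -1.45), with summed levels of 39798, 32857 and 12678 units on wild-type and 14475, 18435 and 4061 on mutant arrays, which overlap. Summed over 8 mature neutrophil markers, the levels were 2824, 3469 and 1822 units on wild-type and 727, 2120 and 877 on mutant arrays, also with overlap. Gene by gene, 3 of the 8 had positive and 5 had negative differences (median -0.07). Of these, Ngp, a neutrophil granule protein, had a log2 difference of -2.88 ± 0.47 (limma adjusted p = 0.066), a smaller p than that of any member. Summed monocyte and macrophage markers ran from 1056 to 1748 units in wild-type and from 1902 to 1983 in mutant bcCML. Of these 8 markers, however, 4 had positive and 4 had negative differences (median 0.0001). In AML, the same granule genes summed to 40444 to 96359 units in wild-type and 108966 to 115333 in mutant cells, and the neutrophil markers to 68992 to 81601 and 97717 to 127037, with Ltf past the threshold higher and Mmp8 lower in mutants. Their part in the p53 target values was not tested, and in sorted bulk samples a change in the share of a cell type and a change of RNA per cell cannot be told apart.

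**Figure D2:**
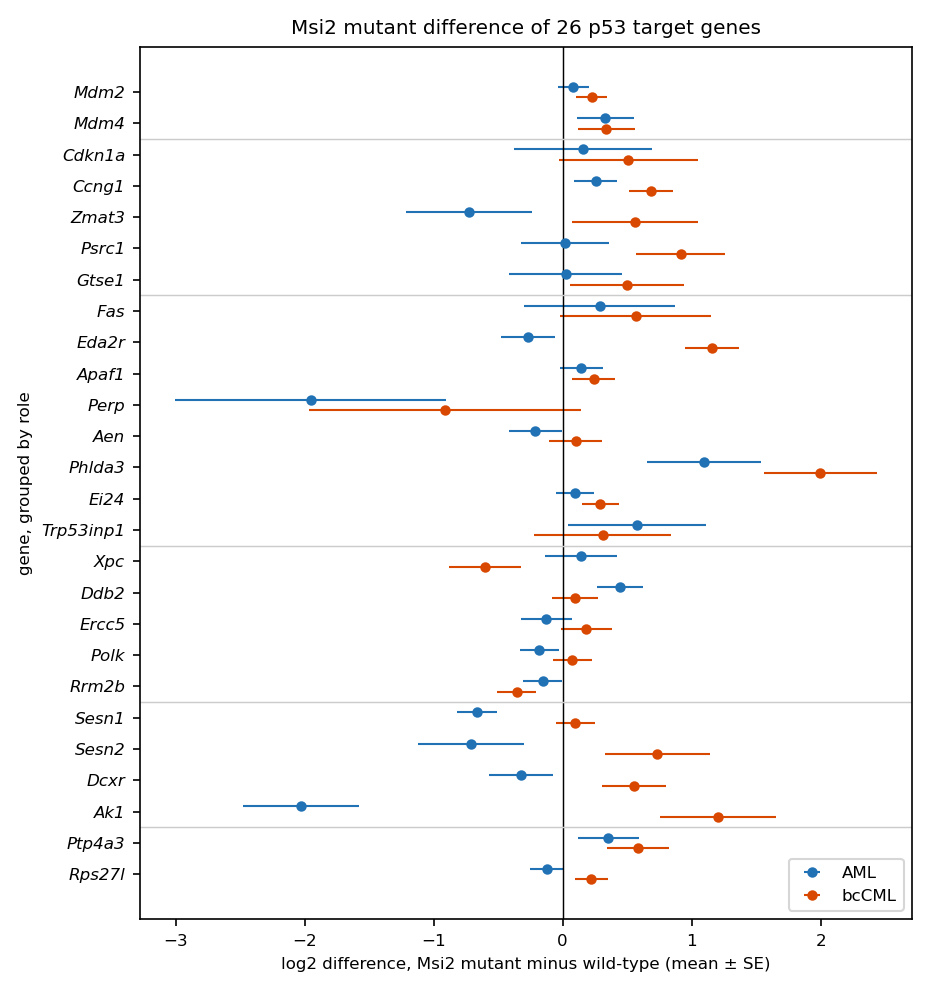
Msi2 mutant minus wild-type difference in log2 intensity (mean ± SE from the limma fit, 3 arrays per group) for 26 p53 target genes in AML (blue) and bcCML (orange), grouped by role. In bcCML 23 genes lie right of 0, and in AML 14 do, with Ak1 at -2.03 in AML and 1.21 in bcCML.

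The wild-type leukaemias were compared at the same threshold, and 17 of 26 members differed, 12 of them higher in bcCML and 5 lower, beside 36.9% of all genes (17.7% higher and 19.3% lower). The member median was 0.52 on the log2 scale against 0.00 for all genes, and 19 of 26 were positive. Higher in bcCML were Ccng1, Zmat3, Psrc1, Eda2r, Perp, Aen, Phlda3, Ercc5, Sesn1, Ak1, Ptp4a3 and Rps27l. Lower were Mdm2, Apaf1, Xpc, Rrm2b and Dcxr. Of the 22 members above 16 units on all 12 arrays, 8 were higher and 5 lower (median 0.34), beside 1329 and 1568 of the 8919 such genes. The median of the 26 was 0.32 without wild-type AML array 2, and 12 to 18 members passed when each array was left out in turn.

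Markers of several blood lineages lay apart in the same comparison. Of the tested markers, 7 of 8 of mature neutrophils (median -4.43) and 5 of 8 of monocytes and macrophages (median -2.91) were lower in wild-type bcCML, and 1 of the latter was higher. All 4 erythroid markers (median 5.34), all 5 of megakaryocytes (median 5.45) and 3 of 5 of mast cells and basophils (median 3.20) were higher. The summed neutrophil markers ran from 68992 to 81601 units in wild-type AML and from 1822 to 3469 in wild-type bcCML, and the erythroid ones from 31.7 to 36.4 and from 1268 to 3567. Their part in the p53 target differences was not tested.

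**Figure D3:**
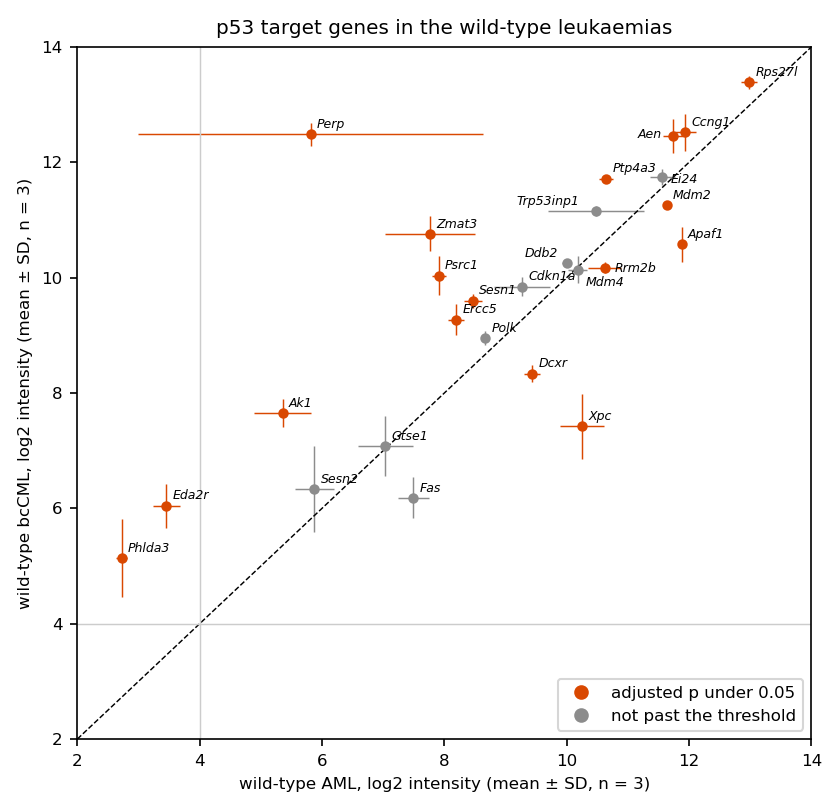
Mean log2 intensity of 26 p53 target genes in wild-type bcCML against wild-type AML (bars are ± SD, n = 3 arrays each); the dashed line marks equal levels, and grey lines mark the filter level of 4. The 17 orange genes passed an adjusted p of 0.05, and Perp, Zmat3 and Eda2r lie farthest above the line and Xpc farthest below it.

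Of the inhibitors of p53, Mdm2 measured 3173, 3094 and 3284 units in wild-type AML and 3520, 3185 and 3421 in mutant AML. In bcCML it measured 2393, 2586 and 2396 units in wild-type and 3014, 2526 and 3104 in mutant cells. The bcCML mutant values reached above and below the highest wild-type value, and the log2 differences were 0.08 ± 0.12 (SE) in AML and 0.22 ± 0.12 in bcCML (limma adjusted p = 0.856 and 0.670). The wild-type bcCML arrays all lay below the AML ones, a log2 difference of -0.37 ± 0.12 (limma adjusted p = 0.0349). This call was lost without any 1 of the 6 wild-type arrays (adjusted p from 0.0527 to 0.0986), and the dimmest Mdm2 probe set gave 0.32 in the other direction. Between genotypes the other Mdm2 probe sets, which were dimmer, gave 0.63 and 0.58 in AML and 0.15 and 0.47 in bcCML.

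Mdm4 measured 1036, 1174 and 1282 units in wild-type AML and 1916, 1057 and 1529 in mutant AML, with the ranges overlapping. The bcCML arrays gave 1324, 960 and 1132 units in wild-type and 1533, 1250 and 1517 in mutant cells, also overlapping. The log2 differences were 0.33 ± 0.22 and 0.34 ± 0.22 (limma adjusted p = 0.579 and 0.735), and its second probe set that passed the filter gave 0.53 and 0.54. The AML value was 0.13 without mutant array 1 and 0.56 without mutant array 2.

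The cell cycle members were positive in bcCML for all 5 tested genes (median 0.56, range 0.50 to 0.91), with none past the threshold. Cdkn1a encodes p21, the inhibitor of cyclin-dependent kinases through which p53 halts the cycle. It measured 652, 441 and 821 units in wild-type AML and 287, 1635 and 701 in mutant AML, so the mutants included both the lowest and the highest AML value. Levels in bcCML were 826, 1040 and 905 units in wild-type and 849, 1471 and 1795 in mutant cells, with mutant array 1 inside the wild-type range. The log2 differences were 0.16 ± 0.54 in AML and 0.51 ± 0.54 in bcCML (limma adjusted p = 0.965 and 0.865). The AML value turned to -0.08 without wild-type array 2 and to -0.46 without mutant array 2.

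Ccng1, cyclin G1, which works with the phosphatase PP2A on Mdm2, was among the brightest members. It measured 3616, 3677 and 4494 units in wild-type AML, 4377, 4819 and 4827 in mutant AML, 4562, 6736 and 6662 in wild-type bcCML and 9480, 9264 and 9663 in mutant bcCML. The mutant bcCML arrays lay close together and above all others, a difference of 0.68 ± 0.17 on the log2 scale (95% interval 0.31 to 1.06; limma adjusted p = 0.268). All 3 Ccng1 probe sets were positive in bcCML, at 0.68, 0.49 and 0.80. Wild-type bcCML exceeded wild-type AML by 0.59 ± 0.17 (adjusted p = 0.0191), a call lost without wild-type AML array 1 or 2 or bcCML array 2 or 3 (adjusted p up to 0.0750). Ccng1 lies on chromosome 11, as does Msi2.

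Psrc1, a microtubule-binding protein also called DDA3, measured 260, 240 and 223 units in wild-type AML and 462, 182 and 172 in mutant AML, where array 1 alone was above the wild-type range. Wild-type bcCML gave 830, 1051 and 1321 units and mutant bcCML 1768, 1845 and 2366, with no overlap. The difference was 0.91 ± 0.34 in bcCML (limma adjusted p = 0.543) and 0.02 ± 0.34 in AML. Its other 2 probe sets gave 1.04 and 0.55 in bcCML. Between the wild-type leukaemias Psrc1 was higher in bcCML by 2.12 ± 0.34 (adjusted p = 0.000839).

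Zmat3, an RNA-binding zinc finger protein that acts on splicing and RNA stability, measured 135, 206 and 373 units in wild-type AML and 59.7, 239 and 162 in mutant AML. Levels in bcCML were 1894, 1366 and 2017 units in wild-type and 2789, 2116 and 2832 in mutant cells, all mutants being higher. The bcCML difference of 0.56 ± 0.49 did not pass (limma adjusted p = 0.833), while wild-type bcCML exceeded wild-type AML by 2.99 ± 0.49 (adjusted p = 0.000927). Gtse1, a protein that moves p53 out of the nucleus, had group means of 136 and 149 units in AML and 141 and 199 in bcCML, with overlapping arrays.

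Of the cell death members, 7 of 8 tested genes were positive in bcCML (median 0.30) and 5 of 8 in AML (median 0.12). Phlda3 is a lipid-binding protein that competes with the kinase Akt at the membrane. It measured 6.38, 6.36 and 7.12 units in wild-type AML, all below the filter level, and 6.71, 22.8 and 18.4 in mutant AML, where arrays 2 and 3 were above it. The bcCML levels were 20.97, 52.2 and 39.7 units in wild-type and 126, 132 and 167 in mutant cells, with no overlap.

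Phlda3 thus had the largest positive difference among the members in bcCML, 2.00 ± 0.44 on the log2 scale or 3.99-fold (95% interval 1.02 to 2.97 on the log2 scale; limma adjusted p = 0.193). The fitted AML difference was 1.10 ± 0.44 (adjusted p = 0.290), and the mean of both 1.55 ± 0.31 (adjusted p = 0.0657). Since all wild-type AML arrays and mutant array 1 were below the filter level, the size of the AML difference is not measured. Without that mutant array the fit passed (adjusted p = 0.0481), with the same limit. With 16 units added before taking logs, the bcCML value was 1.59 and passed (adjusted p = 0.0411). Since all wild-type AML arrays were below the filter level, the wild-type bcCML mean is only known as at least 2.20-fold higher. The adjusted p of 0.00181 belongs to the fitted log2 difference of 2.41.

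Eda2r, a death receptor of the TNF receptor family, was below the filter level on all 6 AML arrays, at 13.1, 10.6 and 9.59 units in wild-type and 9.05, 9.35 and 8.95 in mutant cells. In bcCML it measured 50, 68.6 and 84.3 units in wild-type and 121, 154 and 173 in mutant cells, with no overlap. The bcCML difference was 1.16 ± 0.21 on the log2 scale, or 2.23-fold (95% interval 0.69 to 1.63), and had the smallest p of all members there (limma adjusted p = 0.0909, rank 30 of 10817 genes). The wild-type bcCML mean was at least 4.13-fold higher than wild-type AML, and the fitted log2 difference of 2.59 passed (adjusted p = 8.15e-06). Eda2r entered the test through its bcCML arrays alone, so this fitted difference and its p rest on AML values below the filter level. Eda2r lies on the X chromosome, and the sex-linked RNAs parted the 2 models. Within bcCML, Eif2s3y also differed between arrays, at 3228, 2448 and 2228 units in wild-type and 2844, 218 and 1122 in mutant cells, as did Xist, at 22.0, 15.6 and 29.1 units in wild-type and 89.0, 15.6 and 68.5 in mutant cells. Their part in the Eda2r values was not tested.

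Perp, a membrane protein of cell junctions that takes part in p53-driven death, stood out between the models. It measured 18.3, 18.3 and 538 units in wild-type AML and 22.2, 13.8 and 10.1 in mutant AML, so wild-type array 3 alone was bright. Its bcCML levels were 6223, 6189 and 4871 units in wild-type and 3792, 2577 and 2886 in mutant cells, all mutants being lower. Perp was thus 1 of 3 members with a negative bcCML difference, -0.91 ± 1.05 (limma adjusted p = 0.882), in a fit whose error is pooled over all 4 groups. Wild-type bcCML exceeded wild-type AML by 6.67 ± 1.05 (adjusted p = 0.000746), and by 8.29 without wild-type AML array 3.

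Apaf1, the scaffold of the apoptosome, measured 3752, 3639 and 3926 units in wild-type AML, 4367, 3828 and 4337 in mutant AML, 1230, 1870 and 1553 in wild-type bcCML and 1999, 1817 and 1619 in mutant bcCML. All bcCML arrays lay below all AML arrays, and the wild-type difference was -1.30 ± 0.16 (limma adjusted p = 0.000171). Aen, a nuclease of dying cells, measured 2990, 3617 and 3747 units in wild-type AML, 3633, 2306 and 3121 in mutant AML, 5344, 4754 and 7013 in wild-type bcCML and 6205, 5346 and 6610 in mutant bcCML. It was higher in wild-type bcCML by 0.71 ± 0.21 (adjusted p = 0.0209), a call lost without wild-type AML array 1 or wild-type bcCML array 3 (adjusted p up to 0.0841).

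The other 3 cell death members passed no comparison. The death receptor Fas had means of 182 ± 30.2 and 274 ± 196 units (SD, n = 3) in wild-type and mutant AML and of 74.3 ± 19.2 and 122 ± 73.9 in bcCML. Ei24, an endoplasmic reticulum protein, had means of 3047 and 3247 units in AML and of 3440 and 4202 in bcCML, where the mutants were wholly higher (0.29 ± 0.15). Trp53inp1, a nuclear cofactor of p53 that also acts in autophagy, had means of 1574 and 2573 units in AML and of 2285 and 3015 in bcCML, with mutant AML array 2 at 4918 and mutant bcCML array 1 at 4593, each above all other arrays of its model.

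**Figure D4:**
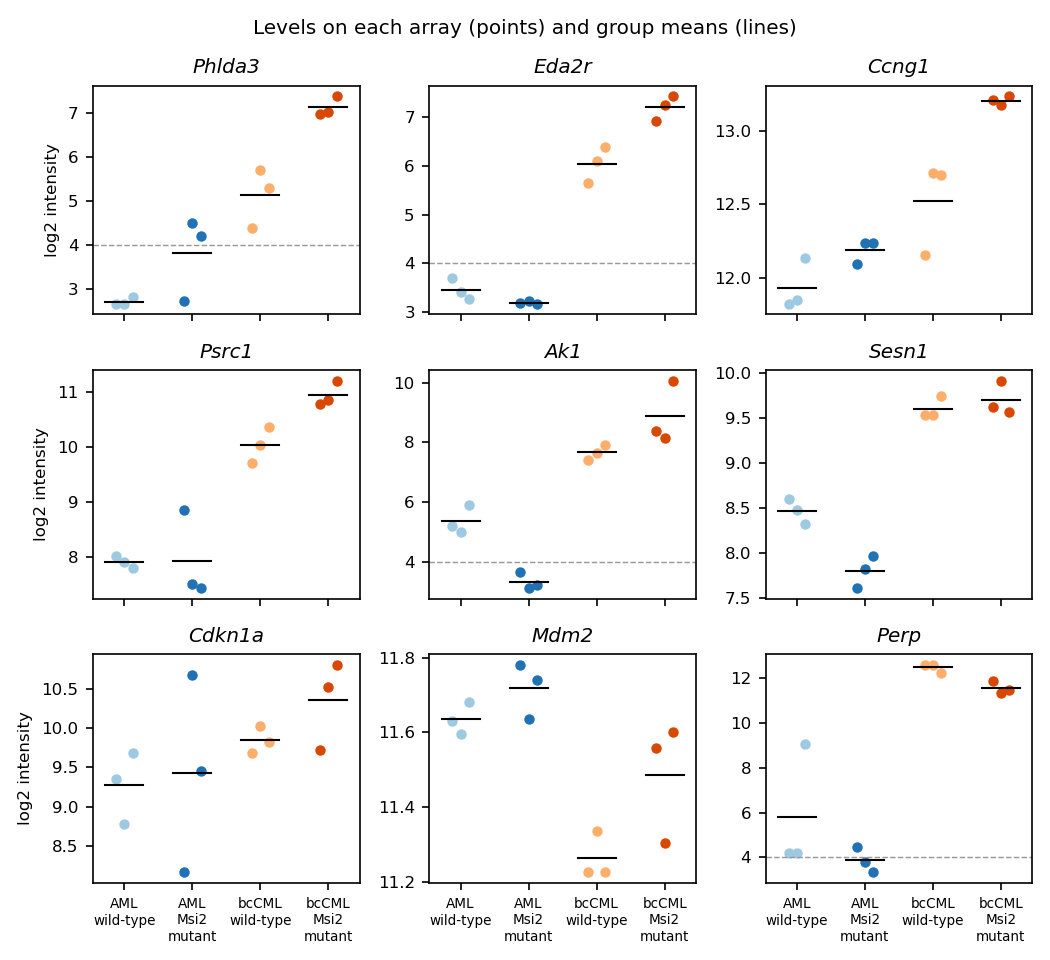
Log2 intensity on each of the 12 arrays (points) and the mean of each group of 3 (lines) for 9 p53 target genes; axes differ between panels, and dashed lines mark the filter level of 4 where a gene reached it. Phlda3, Eda2r, Ccng1, Psrc1 and Ak1 are higher on all mutant than on all wild-type bcCML arrays, while Cdkn1a and Mdm2 overlap.

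Of the DNA repair and nucleotide supply members, 3 of 5 were positive in bcCML (median 0.08) and 2 of 5 in AML (median -0.13), and none passed between genotypes. Xpc, which detects bulky lesions for nucleotide excision repair, measured 1386, 1435 and 911 units in wild-type AML, 1450, 1089 and 1545 in mutant AML, 110, 226 and 202 in wild-type bcCML and 120, 115 and 104 in mutant bcCML. It was lower in wild-type bcCML by a log2 difference of -2.83 ± 0.28, or 7.12-fold (limma adjusted p = 3.33e-05), and in bcCML the mutant difference was -0.60 ± 0.28 (adjusted p = 0.615). Ddb2, its partner in lesion recognition, measured 1085, 994 and 993 units in wild-type AML and 1880, 1313 and 1096 in mutant AML, all mutants being higher. That difference was 0.45 ± 0.18 and did not pass (adjusted p = 0.290), and it was 0.23 without mutant array 1. In bcCML Ddb2 measured 1268, 1160 and 1235 units in wild-type and 1289, 1332 and 1290 in mutant cells, a small shift of 0.10 ± 0.18 without overlap.

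Rrm2b, the p53-induced subunit of ribonucleotide reductase that supplies nucleotides for repair, measured 1207, 1069 and 1195 units in wild-type bcCML and 896, 903 and 910 in mutant bcCML, all mutants being lower. The difference was -0.36 ± 0.15 (limma adjusted p = 0.574). In AML it measured 1586, 1303 and 1886 units in wild-type and 1353, 1340 and 1561 in mutant cells, with overlap. It was lower in wild-type bcCML than in wild-type AML by -0.45 ± 0.15 (adjusted p = 0.0397), a call lost without any 1 of 8 arrays (adjusted p from 0.0532 to 0.126): each but array 2 in wild-type AML, and every bcCML array.

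Ercc5, the endonuclease XPG of excision repair, measured 266, 296 and 317 units in wild-type AML, 273, 309 and 227 in mutant AML, 749, 518 and 609 in wild-type bcCML and 709, 571 and 857 in mutant bcCML. It was higher in wild-type bcCML by 1.08 ± 0.20 (limma adjusted p = 0.00185) and overlapped between genotypes. Polk, a polymerase that copies past damaged bases, had means of 408 ± 8.73 and 360 ± 21.3 units (SD, n = 3) in wild-type and mutant AML, without overlap, and of 498 ± 43.4 and 529 ± 96.3 in bcCML.

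Of the stress response and metabolism members, all 4 tested genes were negative in AML (median -0.69) and positive in bcCML (median 0.64). They were 4 of the 5 members with an unadjusted interaction p under 0.05. The positive bcCML sign of Sesn1 held for the probe set used and not for its other probe sets. Ak1, adenylate kinase, which balances ADP with ATP and AMP, measured 36.6, 31.9 and 59.1 units in wild-type AML and 12.7, 8.66 and 9.23 in mutant AML, all mutants being below the filter level. In bcCML it measured 172, 201 and 239 units in wild-type and 329, 286 and 1072 in mutant cells, where array 3 was far above the others.

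Mutant AML was thus at least 2.56-fold lower in Ak1, with a fitted log2 difference of -2.03 ± 0.45 and the smallest p of all members in AML (limma adjusted p = 0.0596). In bcCML the difference was 1.21 ± 0.45 (adjusted p = 0.543), and 0.60 without mutant array 3. The fitted interaction was 3.23 ± 0.63 (adjusted p = 0.116), and it rests on mutant AML arrays below the filter level. Without bcCML mutant array 3 the AML difference stayed at -2.03 and passed (adjusted p = 0.0111). Ak1 was higher in wild-type bcCML than in wild-type AML by 2.30 ± 0.45 (adjusted p = 0.00268). Ak1 and Eda2r were the 2 members whose mutant arrays lay wholly on opposite sides of wild-type in the 2 models, beside 0.814% of all genes, although Eda2r was below the filter level throughout AML.

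Sesn1 and Sesn2 encode sestrins, which restrain the growth kinase complex mTORC1. Sesn1 measured 390, 356 and 320 units in wild-type AML and 196, 228 and 251 in mutant AML, all mutants being lower. The bcCML arrays gave 738, 741 and 858 units in wild-type and 786, 965 and 760 in mutant cells, with overlap. The AML difference was -0.66 ± 0.15, or 1.58-fold lower (limma adjusted p = 0.0699), and all 4 Sesn1 probe sets were negative there, from -0.24 to -0.70. The bcCML difference was 0.10 ± 0.15, while the other Sesn1 probe sets gave -0.09, -0.31 and -0.08 there. The interaction of 0.76 ± 0.22 did not pass (adjusted p = 0.293). The interaction was -0.067 with the dimmest Sesn1 probe set. Wild-type bcCML exceeded wild-type AML by 1.13 ± 0.15 (adjusted p = 0.00027).

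Sesn2 was dimmer, at 63.5, 45.6 and 69.6 units in wild-type AML and 27.98, 51.7 and 31.9 in mutant AML, where array 2 overlapped. In bcCML it measured 45.0, 121 and 95.4 units in wild-type and 96.1, 121 and 208 in mutant cells. Its differences were -0.71 ± 0.41 in AML and 0.74 ± 0.41 in bcCML (limma adjusted p = 0.499 and 0.677), and its second probe set gave -0.63 and 1.04. Dcxr, a carbonyl reductase of sugar metabolism, measured 627, 739 and 715 units in wild-type AML and 702, 500 and 484 in mutant AML. Levels in bcCML were 314, 298 and 362 units in wild-type and 469, 332 and 681 in mutant cells, so both models overlapped. Its differences were -0.32 ± 0.25 and 0.55 ± 0.25 (adjusted p = 0.647 and 0.60), and it was lower in wild-type bcCML by -1.10 ± 0.25 (adjusted p = 0.00611). Dcxr lies on chromosome 11, as does Msi2.

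Of the remaining targets, Ptp4a3, a phosphatase also called PRL-3, measured 1677, 1459 and 1668 units in wild-type AML and 1359, 2831 and 2218 in mutant AML. The bcCML arrays gave 3227, 3409 and 3461 units in wild-type and 4863, 4381 and 6011 in mutant cells, all mutants being higher, with a log2 difference of 0.58 ± 0.24 (limma adjusted p = 0.574). Wild-type bcCML exceeded wild-type AML by 1.07 ± 0.24 (adjusted p = 0.00566). Rps27l, a ribosomal protein paralog, measured 8560, 8473 and 7327 units in wild-type AML, 7598, 7016 and 7694 in mutant AML, 9833, 11246 and 11154 in wild-type bcCML and 11337, 13114 and 13135 in mutant bcCML. The mutant bcCML arrays were the highest of all (0.22 ± 0.13; adjusted p = 0.689). Wild-type bcCML exceeded wild-type AML by 0.40 ± 0.13 (adjusted p = 0.0297), a call lost without any wild-type AML array or without wild-type bcCML array 2 or 3 (adjusted p up to 0.0924).

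The 4 genes with an adjoining pair of half-sites in a promoter had bcCML differences of 0.51 (Cdkn1a), 0.68 (Ccng1), 0.22 (Rps27l) and 0.50 (Gtse1). In AML they were 0.16, 0.26, -0.12 and 0.02. The printed promoters thus belong to members with positive bcCML differences, as most members were, and not to the members with the largest ones.

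Genes that act on p53 or upstream of it were described in the same way. Of 14 tested regulators of p53, 1 passed in AML (1.52% of all genes) and 0 in bcCML (0.139%), with medians of 0.00 and 0.05. The one was Otub1, an enzyme that keeps p53 from being ubiquitinated, which measured 1902, 1956 and 2144 units in wild-type AML and 1320, 1427 and 1379 in mutant AML, without overlap. Its log2 difference was -0.54 ± 0.11 in AML (limma adjusted p = 0.0483) and -0.12 ± 0.11 in bcCML. The AML call was lost without any 1 of the 12 arrays (adjusted p from 0.0653 to 0.132). Of 14 tested damage sensors and kinases, 0 passed in either model beside the same shares, with medians of -0.13 and -0.10. Those with the smallest p were Prkdc in AML (-0.53 ± 0.20; adjusted p = 0.262) and Chek2, a checkpoint kinase that phosphorylates p53, in bcCML (0.59 ± 0.24; adjusted p = 0.574).

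A second list of p53 targets was set beside the members. Of its 23 tested genes 10 were positive in bcCML (median -0.08) and 12 in AML (median 0.05), and 0 passed in either, beside 0.139% and 1.52% of all genes. The smallest p in bcCML belonged to Rprm, Reprimo, a cell cycle arrest protein, which measured 10.2, 6.45 and 12.7 units in wild-type and 84.1, 50.2 and 16.9 in mutant cells. Its fitted difference was 2.14 ± 0.48 (limma adjusted p = 0.193), with wild-type below the filter level. The death gene Bid had negative differences in both, -0.52 ± 0.13 in AML (adjusted p = 0.0914) and -0.47 ± 0.13 in bcCML (adjusted p = 0.354). Of 19 tested mitotic genes, which p53 represses through p21 and the DREAM complex, 0 passed in either model, beside the same shares. In bcCML 15 of them were positive (median 0.23) and in AML 6 (median -0.10).

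Between the wild-type leukaemias the same lists differed at 3 of 14 regulators, 3 of 14 damage genes, 7 of 23 other targets and 0 of 19 mitotic genes, beside the 36.9% of all genes. Although none passed, 18 of the 19 mitotic genes had negative differences and 1 a positive one (median -0.43), where 50.25% of all genes were positive. Cdkn2a, whose ARF product blocks Mdm2, was higher in bcCML (159, 161 and 142 units against 16.8, 15.2 and 32.5 in AML), a log2 difference of 2.93 ± 0.42 (limma adjusted p = 0.000425). The acetyltransferase gene Ep300 was lower by -0.64 ± 0.14 (adjusted p = 0.00496) and the deubiquitinase gene Usp10 higher by 0.69 ± 0.24 (adjusted p = 0.0443). Of the damage genes, Trp53bp1 (0.60 ± 0.16) and Hus1 (0.80 ± 0.25) were higher and Mdc1 (-0.50 ± 0.13) lower in bcCML. Of the other targets, Lif, Slc19a2 and Bcl2l1 were higher and Bid, Tigar, Glipr1 and Cd82 lower. Lif lay below the filter level on all AML arrays (4.58 to 5.39 units), so it entered the test through bcCML alone. The calls of Usp10 (8 arrays), Bcl2l1 (5), Hus1 (3), Trp53bp1 (3), Mdc1 (2) and Cd82 (1) were each lost without any 1 of the number of arrays given. Tigar, a phosphatase that slows glycolysis, had the largest negative difference among these, -3.43 ± 0.48 (adjusted p = 0.00033). With the dimmest passing probe set of each gene, Hus1 gave 0.03 and Glipr1 -0.23, and neither passed (limma adjusted p = 0.956 and 0.358). In that setting the calls of Trp53bp1 and Usp10 were also lost (limma adjusted p = 0.0873 and 0.0534).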

How the data were processed

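RNA of 12 samples, titled as biological replicates, was measured on Affymetrix mouse arrays. The deposited values are linear intensity values per probe set. The submitters' processing notes name GCRMA, with no version or settings given in the sources used here. This method corrects background and presses dim probe sets towards a floor, 4.49 units here, so differences of dim genes are only partly measured. Of 45037 probe sets, 34945 had 1 gene symbol. Log2 was taken without a pseudocount, and the filter and choice of probe set are those stated above.

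Group means were fitted over all 12 arrays with limma 3.58.1 in R 4.3.3 (lmFit and eBayes, 8 residual and 2.19 prior degrees of freedom), two-sided, with Benjamini-Hochberg adjustment over 10817 genes, and tested on simulated data. The first contrasts set mutant against wild-type (AML, bcCML and the mean of both), the fourth is the bcCML minus the AML difference, and the last is wild-type bcCML minus wild-type AML. These contrasts share arrays. A fold is a ratio of geometric means; where a whole group lay below 16 units it is a bound against that level. Members and lists were chosen with earlier results of these data known. Array values are given for Mdm2, Mdm4, Cdkn1a, every member past the threshold and the 6 members of smallest p in AML, bcCML and the interaction. From the wider lists, genes past the threshold or among the 3 smallest p are named. Kit, Prf1, Cd2, Gzma, Cd3e, Cd3g, Xist and Eif2s3y serve as checks.

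Same-numbered bcCML arrays deviated together from their group means (correlations 0.396, 0.364 and 0.278), so the numbers were taken to pair them, which rests on the values since the labels state no pairing. The AML values were -0.055, -0.121 and -0.03, and those between wild-type groups 0.016, 0.235 and 0.111, and neither was taken to pair. With 3 arrays per group, the number of arrays limits the precision. Alternatives changed probe sets, filter, pseudocount, normalisation, error model, weights, block and arrays left out. Sequences are from RefSeq (GRCm38.p6).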

Additional observations from a re-analysis of the deposited data

Results flagged for a closer look

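For 2 members all mutant arrays lay on one side of wild-type in AML and on the other side in bcCML. Ak1 was lower on all mutant AML arrays and higher on all mutant bcCML arrays, and its fitted bcCML minus AML difference was 3.23 on the log2 scale (limma adjusted p = 0.116). Its mutant AML arrays were all below the filter level, so the AML part of this value is only known as at least 2.56-fold lower. Eda2r showed the same order, with a difference of 1.43 (limma adjusted p = 0.141), although all 6 of its AML arrays were below the filter level. Neither passed the test of the difference. Of all genes tested, 88 had such an arrangement of arrays.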

How the results depend on the processing

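With the replicate number as a block over all 12 arrays, members past the threshold numbered 1 in AML (Ak1), 0 in bcCML, 0 for the mean of both, 0 for the interaction and 15 between the wild-type leukaemias. With the block within the 6 bcCML arrays, where the numbers were taken to pair the samples, 0 members passed. The block within bcCML thus changed no member's call there, while members with an unadjusted p under 0.05 went from 7 to 11. Of all genes 0 passed in place of 15. That fit and the dimmest passing probe set of each gene were chosen after seeing the data. Array weights from limma gave 3 members in AML, 2 in bcCML, 3 for the mean of both and 2 for the interaction. These weights leaned on single arrays, at 4.985, 0.734 and 0.462 for wild-type AML arrays 1 to 3 and 0.53, 0.839 and 3.068 for wild-type bcCML. Of all genes, 1053 then passed in AML in place of 164, 71 in bcCML, 750 for the mean of both in place of 51, and 126 for the interaction in place of 0. The other alternatives that kept all arrays of a comparison gave lower counts than weights did, down to 0 in AML and in bcCML with the 6 arrays of the comparison alone. With 1 array left out, all genes past the threshold ranged from 43 to 182 in AML, from 7 to 22 in bcCML, from 4 to 122 for the mean of both and from 0 to 21 for the interaction. eBayes with trend and robust settings gave 1 in AML. A pseudocount of 16 gave 1 in bcCML and 1 for the mean of both. The dimmest passing probe sets gave 11 between the wild-type leukaemias in place of 17, turned the wild-type difference of Mdm2 to 0.32 and the interaction of Sesn1 to -0.067. Leaving out 1 array at a time gave 0 to 1 members in AML, 0 to 2 for the mean of both (2 without AML mutant array 1), a member median of 0.32 to 0.69 between the wild-type leukaemias, and -0.46 to 0.79 for Cdkn1a in AML. The causes were not tested. The member median in bcCML stayed between 0.27 and 0.49 under every setting run. Phlda3, Eda2r and Ak1 are near the filter level in AML, where signal over background limits any difference.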
